A study of Mus musculus and Rattus norvegicus with 12 samples.

Results

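Basement membranes are thin sheets of matrix in which a network of collagen IV is tied to a network of laminin, with nidogens as linkers and heparan sulfate proteoglycans such as perlecan and agrin held in the mesh. The parietal endoderm of rodent embryos lays down an unusually thick one, Reichert's membrane, and cultured lines of this lineage are known for secreting the same proteins. Here 10 genes of this matrix were followed: the collagen IV chains Col4a1, Col4a2 and Col4a5, the nidogens Nid1 and Nid2, the proteoglycan genes Hspg2, Agrn and Col18a1, and the matrix glycoproteins Sparc and Fbln1. They were taken by symbol from the count tables. All 10 had a row among the 24411 mouse genes, and 6 of them among the 17315 rat genes, where no row carries the symbols Col4a2, Col4a5, Nid1 or Hspg2.

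RNA of 12 separately derived lines was sequenced after 2 days of culture. Mouse lines, all ICR, were pXEN2 (labelled male), pXEN4 and pXEN6 (female), XEN1 (female), XEN2 and XEN5 (male), ES2 (male) and ES3 (female). XEN lines are extraembryonic endoderm stem cell lines and grew on mouse embryo fibroblasts in 20% serum; ES lines are pluripotent and grew in 15% serum with LIF and 2i. The pXEN lines were kept in the culture described for rat XENP lines, here CX1 (WKY, male), MAX8 (WKY, female), MAX2 (F344, female) and MAX3 (F344, male), which are rat lines derived, like all others here, from blastocysts. Passages were 17 to 21 in pXEN, 9 and 10 in XEN1, 19 to 21 in the other XEN lines, 14 to 16 in ES, 38 and 40 in CX1 and 10 to 17 in the other rat lines. Cell type and culture change together between the mouse groups, and in bulk RNA fewer cells of a type cannot be told apart from less RNA per cell.

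Gene counts were 2661691 to 3483069 per mouse line, of which the ribosomal RNA precursor Rn45s took 20.7% to 50.1%, and 1047535 to 1242937 per rat line. Mouse levels are CPM (counts scaled to a fixed library total), with library totals adjusted by edgeR's TMM factors and rat levels are CPM of all gene counts, so the 2 scales are not shared. Against the defining markers of the labels, Gata4, Gata6 and Sox17 stood at 74.2 CPM or more in all endoderm lines and had at most 4 counts each over the ES lines, while Nanog had 4549 counts over the ES lines and at most 1 count over any other group. Other pluripotency genes did not all follow Nanog: the sum of the 6 listed was 3379 to 3383 CPM for ES, 27.6 to 61.2 for pXEN and at most 0.528 for XEN. Pou5f1 averaged 22.8 CPM in pXEN and 0.181 in XEN (adjusted p = 0.000832) and Zfp42 16.2 and 0.0881 CPM (adjusted p = 0.000258). Fibroblast markers were a feature of XEN: the sum of the 20 listed genes was 800 to 1061 CPM for XEN, 20.1 to 25.3 for pXEN and 16.0 to 20.6 for ES, and that of the 18 with a rat row 46.4 to 125 for XENP. Of the 9 defining ones, Col1a2, Col3a1, Dcn, Lum and Prrx1 had 0 counts in pXEN and ES and were present in every XEN line. Others were not confined to XEN: Pdgfrb had 48 counts in pXEN and 16 in ES, and Thy1 had 14 in ES. The largest parts of the XEN sum were Lox, Acta2 and Tagln, which are not defining ones and averaged 269, 184 and 161 CPM there. The sum of 6 endothelial and blood genes was 148 to 479 CPM for pXEN, 64.8 to 199 for XEN, 25.9 to 46.0 for ES and 88.8 to 287 for XENP; the blood marker Ptprc had 0 counts in pXEN, ES and XENP and 1 count in XEN, while Cdh5 averaged 221 CPM in pXEN. The sum of 8 visceral endoderm genes was 120 to 490 CPM for pXEN, 240 to 891 for XEN and 17.9 to 456 for XENP, and 6.24 and 9.46 CPM for ES. Of the 5 tested, 4 were called higher than in ES in both mouse endoderm groups, where 18.2% (pXEN) and 20.7% (XEN) of all genes were. Cubn stood at 234 CPM in pXEN and 432 in XEN, while Afp and Apoa1 had at most 7 counts in any group. Of 6 parietal endoderm genes, Lama1 and Lamb1 among them, 5 were called higher than in ES in both groups, against the same shares. All 6 summed to 6154 to 7409 CPM for pXEN, 4608 to 9522 for XEN and 45.2 to 59.2 for ES. The 5 with a rat row summed to 6200 to 10875 CPM for XENP. Thbd, the gene not called, averaged 54.4 CPM in pXEN and 52.3 in XEN (adjusted p = 0.0522 and 0.0520 against ES). In XEN it ran from 6.12 to 139 CPM. The part of these markers in the results was not tested.

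Col4a1 and Col4a2 encode the chains that form the common collagen IV network, and they lie head to head. In the GENCODE vM21 annotation of GRCm38, Col4a1 spans 11198423 to 11312826 of chromosome 8 on the minus strand and Col4a2 spans 11312805 to 11449287 on the plus strand, so that the ends of their first exons share 22 bases. Their promoter windows, 250 bases before to 50 after the start in RefSeq's GRCm38.p6, are shown because the genes have 1 start region for both directions. The capitals mark the 78 bases that both windows hold (chr8:11312777-11312854), read from opposite strands. The Col4a1 window is chr8:11312777-11313076, minus strand, and the Col4a2 window chr8:11312555-11312854, plus strand.
Col4a1: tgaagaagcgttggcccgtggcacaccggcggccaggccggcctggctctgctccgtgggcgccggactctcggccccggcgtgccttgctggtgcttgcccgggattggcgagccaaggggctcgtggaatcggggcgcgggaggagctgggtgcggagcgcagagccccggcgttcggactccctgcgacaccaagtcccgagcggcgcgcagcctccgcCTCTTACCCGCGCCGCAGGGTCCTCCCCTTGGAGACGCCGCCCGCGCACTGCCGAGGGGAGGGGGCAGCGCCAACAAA
Col4a2: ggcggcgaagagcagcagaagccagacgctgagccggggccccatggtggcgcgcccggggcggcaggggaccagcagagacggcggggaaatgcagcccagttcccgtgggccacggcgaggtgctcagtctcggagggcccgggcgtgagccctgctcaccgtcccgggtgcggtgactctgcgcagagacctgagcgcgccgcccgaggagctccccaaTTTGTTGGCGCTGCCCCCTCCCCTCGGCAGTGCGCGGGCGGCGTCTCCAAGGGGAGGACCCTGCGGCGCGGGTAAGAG
The windows are 74.0% and 73.7% G or C and hold 37 and 33 CG pairs, against a median of 52.7% and 7 over 32851 promoter windows of this length. On either strand, CCAAT occurs 1 time in each (37.4% of all windows hold it) and GGGCGG, a GC box, 1 time in the Col4a1 and 3 times in the Col4a2 window (35.7% of all windows). Neither window holds AGATAA, the letters bound by GATA factors, which 11.2% of all windows hold. ACAAAG, of the SOX type, is in neither window and in 18.7% of all. These matches describe letters only.

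Collagen IV transcripts were abundant in the endoderm lines and scarce in ES. Col4a1 stood at 1982, 3212 and 1244 CPM in pXEN2, pXEN4 and pXEN6, at 5308, 1059 and 4373 CPM in XEN1, XEN2 and XEN5, and at 10.7 and 23.0 CPM in ES2 and ES3. Col4a2 stood at 2683, 7427 and 2478 CPM in the pXEN lines, at 9177, 1955 and 2998 CPM in the XEN lines, and at 6.99 and 38.2 CPM in ES. Every endoderm line was far above both ES lines, while pXEN and XEN overlapped, with XEN1 highest and XEN2 lowest of the XEN lines for both genes. Against ES, the fold change of Col4a1 was 127 in pXEN (6.99 on the log2 scale, SE 0.99, adjusted p = 0.0016) and 211 in XEN (7.72, SE 1.02, adjusted p = 0.00122). That of Col4a2 was 185 in pXEN (7.53, SE 1.31, adjusted p = 0.00479) and 207 in XEN (7.70, SE 1.32, adjusted p = 0.00463). The ES lines differed enough to move the size of these folds: without ES2 the Col4a2 fold was 110 in pXEN and 124 in XEN, without ES3 it was 604 and 670, and that of Col4a1 was 202 and 334. Without pXEN4 the Col4a2 fold in pXEN was 114, and without XEN1 that in XEN was 109; each stayed past the threshold. Between XEN and pXEN neither gene differed beyond the spread (Col4a1 log2 fold change 0.74, SE 0.62, adjusted p = 0.681; Col4a2 0.17, SE 0.80, adjusted p = 0.977, below 0 without TMM scaling and without pXEN2, pXEN6 or XEN1).

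**Figure D1:**
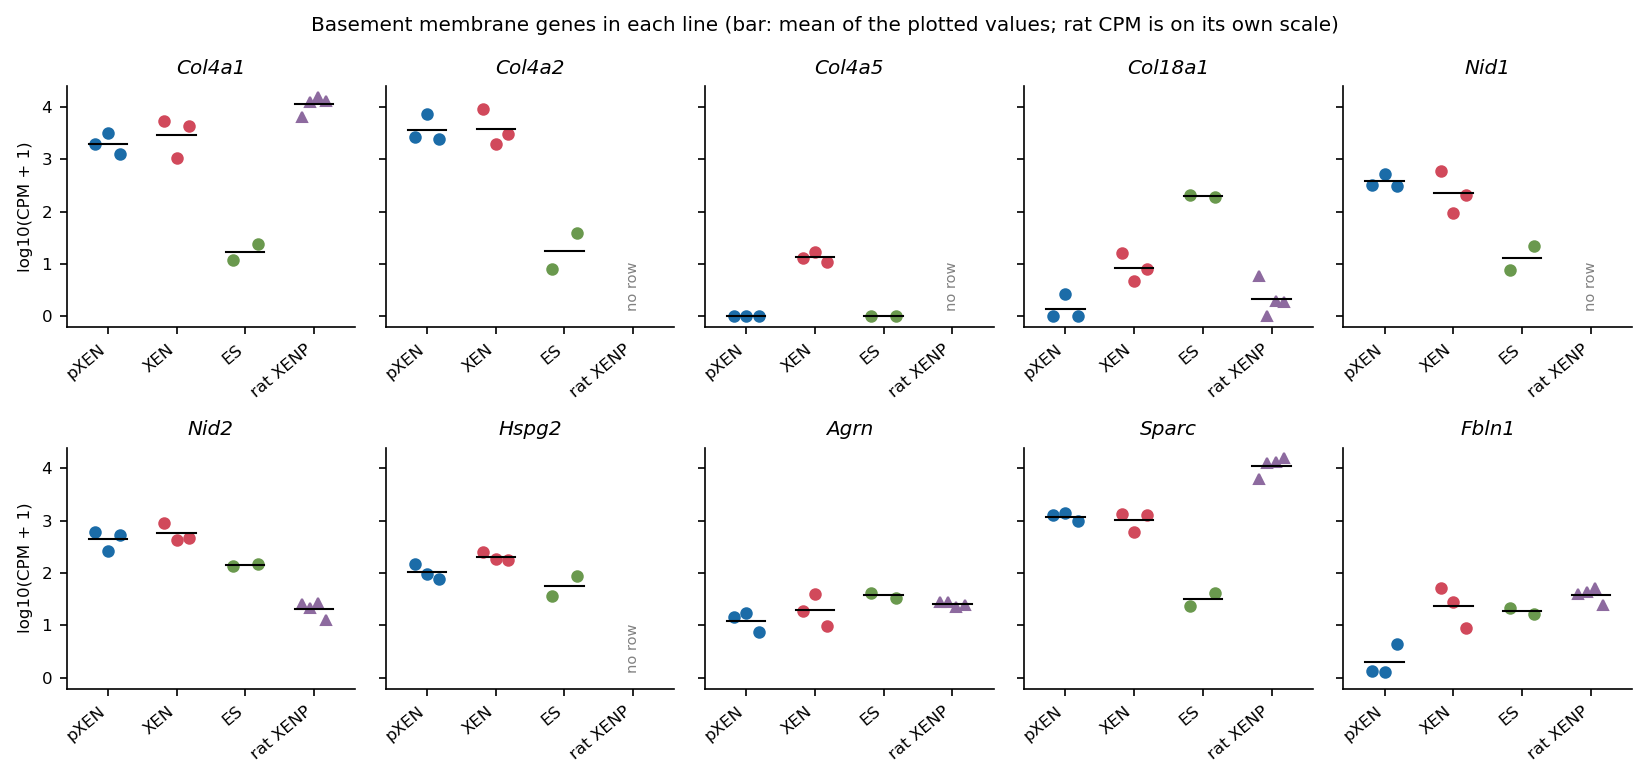
Levels of the 10 genes in each line, as log10 of CPM + 1; circles are mouse lines, triangles rat lines, and the bar is the mean of the plotted values. Col4a1, Col4a2, Nid1 and Sparc are high in all pXEN and XEN lines and low in ES, Col18a1 is the reverse, and Col4a5 is above 0 in the 3 XEN lines only, of the mouse lines.

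The balance of the collagen IV chains was not the same in every line. Counts of Col4a2 to Col4a1 stood in a ratio of 1.35, 2.31 and 1.99 in pXEN2, pXEN4 and pXEN6 and of 1.73 and 1.85 in XEN1 and XEN2. In XEN5 the ratio was 0.686 (11348 to 16552 counts, 95% exact binomial interval 0.669 to 0.702), so that Col4a1 exceeded Col4a2 there and in no other endoderm line of the mouse. The intervals of the other endoderm lines began at 1.31 or higher. In ES2 the ratio was 0.654 from 17 and 26 counts (0.333 to 1.25) and in ES3 1.66 from 98 and 59 (1.19 to 2.33). Per exon length, 6.62 kb for Col4a1 and 6.45 kb for Col4a2, the XEN5 ratio was 0.703 and the other endoderm lines ran from 1.39 to 2.37. These intervals cover counting error only, and no test between groups was made.

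**Figure D2:**
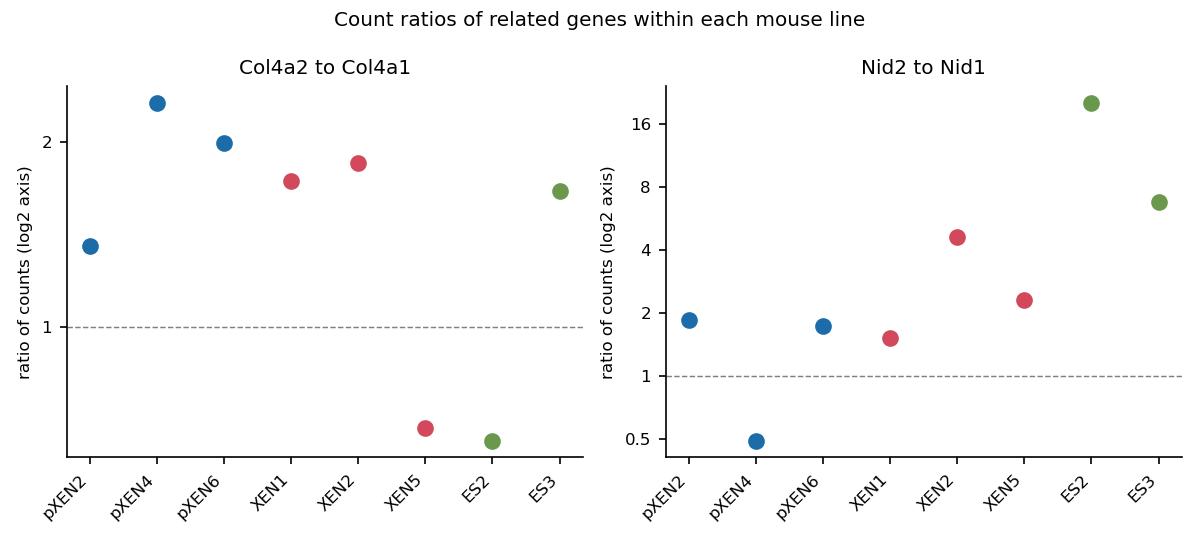
Ratio of Col4a2 to Col4a1 counts (left) and of Nid2 to Nid1 counts (right) in each mouse line, on log2 axes; the dashed line marks equal counts. XEN5 and ES2 lie below 1 on the left, at 0.686 and 0.654, and pXEN4 lies below 1 on the right, at 0.494.

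Col4a5 encodes a chain of the other collagen IV networks and is X-linked (chromosome X, 141475385 to 141689234, plus strand). It had 0 counts in all pXEN and both ES lines and 31, 58 and 38 counts in XEN1, XEN2 and XEN5, which are 12.1, 16.1 and 10.0 CPM. XEN was thus at least 42.6-fold higher than pXEN (adjusted p = 0.00162) and at least 21.2-fold higher than ES (adjusted p = 0.000804), taking 3 counts over the group, 0.299 CPM in pXEN and 0.600 in ES, as the limit that 0 counts allow. Col4a5 passed the filter on low counts only through the XEN lines, where it is high. These p-values are therefore no separate support for the difference. XEN1 is labelled female and XEN2 and XEN5 male. The presence of Col4a5 followed that of the fibroblast markers, whose sum was 800, 904 and 1061 CPM in XEN1, XEN2 and XEN5. The order of the 3 lines was not the same. Lox, Acta2 and Tagln, which are not defining markers, made the largest parts of that sum, so its order is no measure of fibroblast content. The part of the fibroblast markers in this difference was not tested.

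The nidogens bind laminin and collagen IV and join both networks. Nid1 stood at 327, 529 and 308 CPM in the pXEN lines, at 599, 91.5 and 206 CPM in XEN1, XEN2 and XEN5, and at 6.58 and 21.4 CPM in ES. Nid2 stood at 605, 261 and 538 CPM in the pXEN lines, at 913, 424 and 475 CPM in the XEN lines, and at 133 and 145 CPM in ES. Both were above ES in every endoderm line, but ES lines carried clear Nid2 and little Nid1. Nid1 exceeded its ES level 27.5-fold in pXEN (4.78 on the log2 scale, SE 0.99, adjusted p = 0.00834) and 21.1-fold higher in XEN (4.40, SE 0.97, adjusted p = 0.011). Without ES2 both calls were lost (adjusted p = 0.0633 and 0.0784, at 18.2-fold and 13.9-fold), without ES3 the log2 fold changes were 5.89 and 5.49, and without XEN1 the XEN fold was 10.5. Nid2 was 3.36-fold higher in pXEN (1.75, SE 0.42, adjusted p = 0.00917), a call lost without ES2 or ES3 (adjusted p = 0.0803 and 0.0598), and 4.34-fold higher in XEN (2.12, SE 0.43, adjusted p = 0.00387). XEN and pXEN overlapped for both genes (adjusted p = 0.882 for Nid1 and 0.721 for Nid2).

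The ratio of Nid2 to Nid1 counts was 20.2 in ES2 and 6.78 in ES3, above every endoderm line. It was 1.85 in pXEN2, 1.75 in pXEN6, 1.52 in XEN1, 2.31 in XEN5 and 4.64 in XEN2. In pXEN4 it was 0.494 (918 to 1858 counts, interval 0.456 to 0.535), the line in which Nid1 exceeded Nid2. That line also had the highest Col4a1, Col4a2 and Nid1 levels of the pXEN lines. Exons of Nid2 share 437 bases with Rtraf on the other strand, so the strand-specific counts were used; in unstranded counts the ratios were 0.452 to 18.9.

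Perlecan, the product of Hspg2, and agrin are the large heparan sulfate proteoglycans of the mesh. Hspg2 stood at 148, 96.5 and 76.6 CPM in the pXEN lines, at 247, 183 and 175 CPM in the XEN lines and at 35.0 and 85.4 CPM in ES. Every XEN line was above every pXEN and ES line, while pXEN and ES overlapped. Hspg2 rose 3.35-fold in XEN against ES (log2 fold change 1.74, SE 0.40, adjusted p = 0.00672), a call lost without ES2 (adjusted p = 0.0566); without ES3 it was 5.77-fold. In pXEN against ES it was 0.83 (SE 0.39, adjusted p = 0.123), past the threshold without ES3 or without TMM scaling (adjusted p = 0.0229 and 0.0118). XEN against pXEN gave 0.91 (SE 0.34, adjusted p = 0.208).

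Agrn stood at 13.5, 15.9 and 6.31 CPM in the pXEN lines, at 17.5, 38.6 and 8.72 CPM in the XEN lines and at 41.1 and 32.0 CPM in ES. All pXEN lines were below ES, and XEN2 reached the ES range. Agrn fell by 1.61 on the log2 scale in pXEN (SE 0.56, adjusted p = 0.0457), but the call was lost without pXEN2, pXEN4, pXEN6, XEN1, ES2 or ES3 in turn (adjusted p = 0.0513 to 0.206), without TMM scaling, without a filter on low counts and with the labelled sex as a covariate (0.111, 0.0701 and 0.0727). In XEN against ES it was -0.75 (SE 0.55, adjusted p = 0.305) and, without XEN2, -1.49 (adjusted p = 0.0293).

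Col18a1 encodes a collagen that carries heparan sulfate and releases endostatin, and its pattern was the reverse of collagen IV. It stood at 210 and 191 CPM in ES2 and ES3, at 15.2, 3.61 and 7.13 CPM in XEN1, XEN2 and XEN5, at 1.71 CPM in pXEN4 and at 0 counts in pXEN2 and pXEN6. All 6 counts of the pXEN group came from pXEN4 (group level 0.598 CPM, 95% exact Poisson interval 0.219 to 1.30). It fell by 8.30 on the log2 scale in pXEN against ES (SE 0.83, adjusted p = 0.00012) and the XEN change was -4.58 (SE 0.63, adjusted p = 0.000722). Over the 2 pXEN lines with 0 counts alone, ES was at least 436-fold higher. Every XEN line was above every pXEN line, but XEN against pXEN missed the threshold (3.73, SE 0.89, adjusted p = 0.0533); it passed in DESeq2 (adjusted p = 0.0299), without pXEN4 (0.0159) and without XEN2 (0.0257). Without XEN1 the XEN level was 36.9-fold below ES. The gene lies on chromosome 10, 77052178 to 77166548, minus strand, and gene-level counts do not separate the transcripts of its 2 RefSeq promoter windows.

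Sparc binds collagen and calcium and is a long-used marker of parietal endoderm. It stood at 1260, 1377 and 984 CPM in the pXEN lines, at 1355, 602 and 1275 CPM in the XEN lines and at 22.6 and 40.5 CPM in ES. It varied least of the strongly raised genes, with 1.40-fold between the lowest and the highest pXEN line against 2.58-fold for Col4a1 and 3.00-fold for Col4a2. Sparc exceeded its ES level 38.1-fold in pXEN (5.25 on the log2 scale, SE 0.45, adjusted p = 2e-05) and 34.0-fold higher in XEN (5.09, SE 0.45, adjusted p = 2.48e-05), both past the threshold without any 1 mouse line. XEN and pXEN overlapped (-0.16, SE 0.31, adjusted p = 0.889, above 0 without XEN2).

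Fbln1, a glycoprotein of basement membranes and elastic fibres, separated pXEN from the other mouse groups. It had 1, 1 and 12 counts in pXEN2, pXEN4 and pXEN6 (0.329, 0.285 and 3.44 CPM) and stood at 49.9, 26.7 and 7.93 CPM in XEN1, XEN2 and XEN5 and at 20.1 and 15.2 CPM in ES. All pXEN lines were below all XEN and ES lines, and XEN spanned the ES range. In pXEN it fell by 3.64 on the log2 scale against ES (SE 0.96, adjusted p = 0.0165), a call lost without pXEN2, pXEN4, ES2 or ES3 (adjusted p up to 0.0899) and without a filter on low counts (0.0528); without pXEN6 it was -5.68. XEN against pXEN gave 4.30 (SE 0.89, adjusted p = 0.0295), lost without pXEN2, pXEN4, XEN1, XEN2, ES2 or ES3 (adjusted p = 0.0646 to 0.108), without a low-count filter (0.0875) and with only these groups in the fit (0.0687); without pXEN6 the difference was 6.33 and without XEN1 3.63. XEN against ES gave 0.66 (SE 0.80, adjusted p = 0.546), below 0 without XEN1. Every XEN line also held the fibroblast markers. Fbln1 was highest in XEN1, where the marker sum was lowest. The largest parts of that sum were Lox, Acta2 and Tagln, which are not defining markers, so its order is no measure of fibroblast content. The part of these markers in the Fbln1 differences was not tested.

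**Figure D3:**
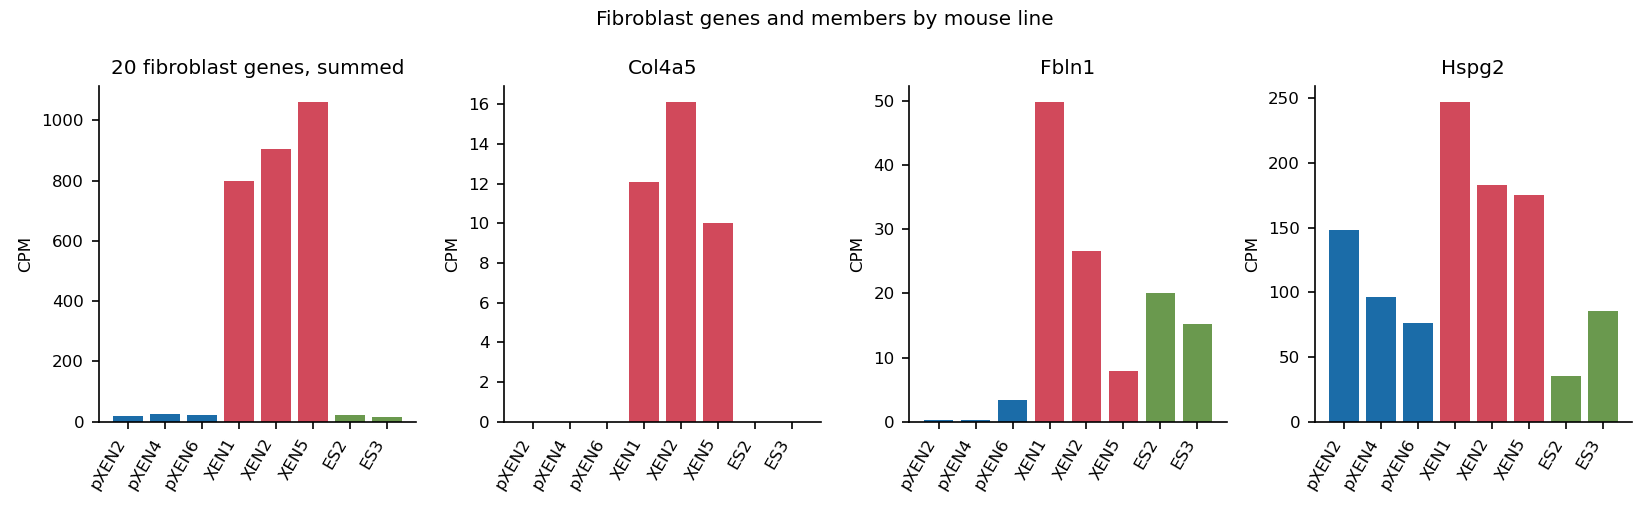
Summed level of the 20 fibroblast genes and levels of Col4a5, Fbln1 and Hspg2, in CPM, in each of the 8 mouse lines (blue pXEN, red XEN, green ES). The fibroblast sum is 800 CPM or more in each XEN line and at most 25.3 CPM elsewhere. Its order over the XEN lines differs from that of the 3 members, but its largest parts are Lox, Acta2 and Tagln, not defining markers.

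Counted together, 5 of the 10 genes rose and 3 fell in pXEN against ES, where 18.2% and 17.8% of the 10895 genes tested did (35.9% together). In XEN, 7 rose and 1 fell, against 20.7% and 17.8% of all genes (38.4% together). At an unadjusted p under 0.05 it was 8 of 10 in each comparison, against 45.6% and 47.8% of all genes. The genes called higher in both were Col4a1, Col4a2, Nid1, Nid2 and Sparc; the ES libraries are shared by both comparisons. The groups did not overlap for 8 of 10 in each, where 62.8% and 63.3% of all genes did not, so the count of separated genes alone is near that of any list. The median log2 fold change was 1.75 in pXEN over the 9 genes with counts and 3.26 in XEN, against -0.03 and 0.00 over all genes. Without ES2 the genes called higher were 3 in pXEN and 5 in XEN, and those lower in pXEN numbered 1 without pXEN2, pXEN4, ES2 or ES3. In XEN against pXEN, 2 were called higher by edgeR (Col4a5 and Fbln1) and 3 by DESeq2, against 3.63% of all genes higher and 4.55% in either direction by edgeR. Without pXEN2, XEN1, ES2 or ES3 it was 1, Col4a5. None was called lower by either tool, where 0.918% of all genes were called lower by edgeR. At an unadjusted p under 0.05, 4 were higher and 0 lower, against 15.2% of all genes in either direction. The groups did not overlap for 4 of 10 (Col4a5, Col18a1, Hspg2 and Fbln1), against 19.8% of all genes. All of these 4 were higher in XEN, the group with the fibroblast markers, whose part was not tested. Col4a5 entered these counts, and the 7 that rose in XEN against ES, only because its XEN counts passed the filter on low counts.

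**Figure D4:**
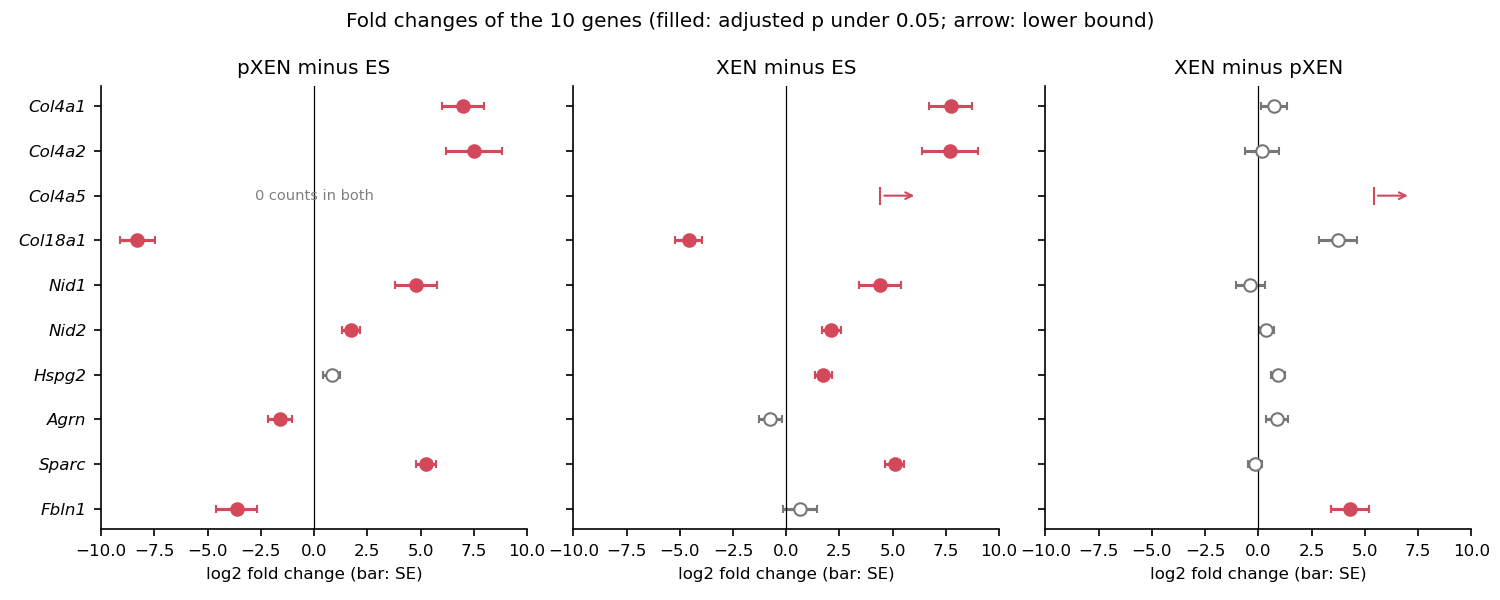
Log2 fold changes with standard errors for the 3 comparisons of mouse groups; filled points have an adjusted p under 0.05, open points do not, and arrows start at the lower bound for Col4a5. Col18a1 lies far left against ES, at -8.30 and -4.58 on the log2 scale, while the Col4a1, Col4a2 and nidogen points against ES lie right of 0. In XEN minus pXEN, Nid1 lies left of 0, at -0.38.

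Per exon length the order of the genes differed between endoderm and ES lines. In pXEN, Col4a2 came first at 651 ± 434 CPM per kb (SD, n = 3), then Sparc at 444 ± 74.2 and Col4a1 at 324 ± 150, and the lines of these 3 genes overlapped. Nid2 at 96.0 ± 37.4 and Nid1 at 63.7 ± 20.1 followed, overlapping each other, and Hspg2 stood at 7.54 ± 2.61. In XEN, Col4a2 at 730 ± 605, Col4a1 at 541 ± 338 and Sparc at 396 ± 152 CPM per kb again overlapped at the top. In ES, Col18a1 at 29.5 ± 1.91 and Nid2 at 28.5 ± 1.82 (n = 2) came first with overlapping ranges, ahead of Sparc at 11.6 ± 4.66, while Col4a1 and Nid1, at 2.55 and 2.30 CPM per kb, were the lowest with counts. In XEN1, Col4a2 was 7th of 12495 detected genes by this measure. It ranked 127 and 71 in XEN2 and XEN5, and 80, 14 and 96 in pXEN2, pXEN4 and pXEN6. Sparc ranked 60 to 176 in the endoderm lines and 2612 and 4110 in ES. Of gene counts other than Rn45s, the 10 genes held 0.876% to 1.98% among pXEN lines, 0.685% to 2.72% among XEN lines, and 0.0722% and 0.0874% in ES2 and ES3. XEN1 was highest and XEN2 lowest of the XEN lines; XEN1 also differs from the other 2 XEN lines in labelled sex and in passage, and these cannot be told apart.

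In the rat lines 2 of the 6 genes dominated. Col4a1 stood at 6419, 12431, 15187 and 13145 CPM in CX1, MAX2, MAX3 and MAX8, and Sparc at 6232, 12896, 13165 and 15450 CPM. CX1 was the lowest line for both genes and the 3 MAX lines lay close together. CX1 is also the line of the highest passage, and line and passage cannot be told apart. A pluripotency gene stood apart in it too. The 4 pluripotency genes with a rat row summed to 163 CPM in CX1, all of it Pou5f1, against 6.25 to 8.32 CPM in the MAX lines. The 8 visceral endoderm genes summed to 456 CPM in CX1, the highest line, but the MAX lines themselves ran from 17.9 to 291 CPM. The part of these markers in the lower Col4a1 and Sparc levels was not tested. Fbln1 stood at 38.6, 42.5, 50.6 and 23.2 CPM and Agrn at 26.6, 26.8, 21.0 and 23.2 CPM, with CX1 inside the range of the MAX lines for both. Nid2 stood at 24.9, 20.3, 25.8 and 11.6 CPM. Col18a1 had 6, 0, 1 and 1 counts (1.78 CPM over the group, 95% exact Poisson interval 0.769 to 3.51). Of the 9 defining fibroblast markers, 8 had 0 counts over the rat lines, and Pdgfrb had 1 count.

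Rat and mouse levels were set side by side without a test, since species, genome and annotation change with the group and 65.5% to 70.1% of rat reads mapped to several places. As a share of gene counts other than Rn45s, Col4a1 was 1.18% ± 0.377 in XENP (SD, n = 4), 0.329% ± 0.151 in pXEN (n = 3) and 0.555% ± 0.344 in XEN (n = 3). Sparc was 1.19% ± 0.397 in XENP, 0.185% ± 0.0295 in pXEN and 0.167% ± 0.0637 in XEN. Among the summed counts of the 6 genes, which does not depend on scaling between libraries, Col4a1 took 45.9% to 53.4% in XENP and 44.8% to 66.0% in pXEN. Sparc took 46.3% to 53.9% in XENP, 28.3% to 35.5% in pXEN and 17.7% to 27.9% in XEN. Nid2 took 0.0405% to 0.196% in XENP, while the pXEN lines ran from 5.37% to 19.4%, the XEN lines from 7.72% to 19.7% and ES from 30.4% to 32.5%. The rat range was thus below every mouse line for Nid2 and above every mouse line for Sparc. Col18a1 took at most 0.0379% in XENP and 0.0351% in pXEN, against 48.0% in ES2 and 42.8% in ES3. Rat gene lengths were not used here, so a shorter annotated Nid2 would lower its share; this was not tested.

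**Figure D5:**
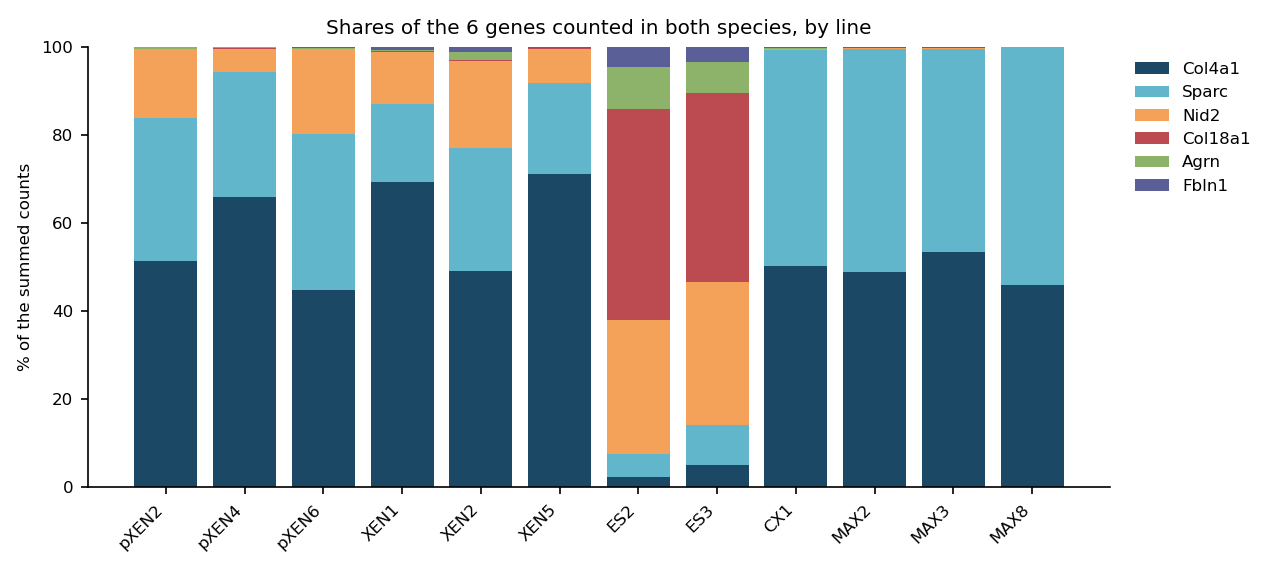
Share of each gene in the summed counts of the 6 genes with rows in both species, in percent, for each of the 12 lines. Col4a1 and Sparc fill nearly all of the rat bars, Nid2 is visible in all mouse bars, and Col18a1 is the largest share in ES.

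Genes outside the group with the most similar profile were looked up over the 8 mouse lines, by Pearson's r of log2 CPM among 5537 genes with at least 20 CPM on average; the points share their libraries and fall into endoderm and ES lines. For Col4a1 these were Ctsb (r = 0.994), a lysosomal protease, Ppapdc1b (0.990), Tm9sf2 (0.989) and Ptprm (0.989). Of the members, Sparc (0.990) lay among them and Col4a2 (0.985) below all of them. For Nid1 they were Keap1 (0.992), Rnf14 (0.990), Lpin1 (0.983) and Zbtb39 (0.983). For Col18a1 they were Tnrc6b (0.997), Dmd (0.984), Rbpms (0.979) and Chd9 (0.978), all with their highest mean in ES. For Fbln1 they were Smad7 (0.977), Clstn1 (0.970), Mapk6 (0.915) and Hist1h3i (0.908).

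Laminins, the partner network, are covered by 11 chain genes, of which 7 passed the filter on low counts. In pXEN against ES 5 rose and 1, Lama5, fell, and in XEN 4 rose and Lama5 fell. Of all genes tested, 18.2% rose and 17.8% fell in pXEN, and 20.7% rose and 17.8% fell in XEN. Lamb1 stood at 3193 ± 344 CPM in pXEN and 2904 ± 906 in XEN against 15.1 ± 6.52 in ES, close to the collagen IV genes in level. Lama1 and Lamc1, which form a laminin with Lamb1, stood at 2850 and 2266 CPM in pXEN and 3142 and 2011 in XEN against 33.7 and 117 in ES (adjusted p at most 0.000904). Lamb2 stood at 35.2 and 46.9 CPM against 7.45 (adjusted p = 0.00213 and 0.000875). Lama4 stood at 78.0 CPM in pXEN against 3 counts in ES (adjusted p = 0.00399, and 0.0547 without ES2). Lama5 was 19.4-fold lower in pXEN than in ES (adjusted p = 6.83e-05) and 6.08-fold higher in XEN than in pXEN (adjusted p = 0.0061), and its call in XEN against ES was lost without ES3 (adjusted p = 0.099). Depending on the line left out, 1 to 2 laminin genes were lower in pXEN (2 without pXEN4 or ES2) and 0 to 2 in XEN (2 without pXEN4, pXEN6 or XEN5).

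Of 18 other basement membrane genes 9 were tested, while 35.9% of all genes were called in pXEN and 38.4% in XEN. In this list 3 rose and 1 fell in pXEN, near that share, and 6 rose in XEN. Without ES2 those lower numbered 3 in pXEN and 1 in XEN, and without ES3 0 in pXEN. Tinagl1, a matricellular glycoprotein, stood at 274 CPM in pXEN and 335 in XEN against 2.54 in ES (adjusted p = 2.74e-05 and 2.44e-05). Pxdn, the peroxidase that crosslinks collagen IV, was 31.8-fold higher in pXEN and 25.4-fold higher in XEN than in ES (adjusted p = 5.14e-05 and 8.46e-05). Fbln2, a relative of Fbln1, stood at 42.4 and 27.8 CPM against 2 counts in ES (adjusted p = 0.000694 and 0.00133). Fbln5, another fibulin, stood at 18.9 CPM in XEN against 1.56 in pXEN (adjusted p = 0.0207, lost without pXEN4 or XEN5, up to 0.0739). At 0.585 CPM in ES, it passed the filter on low counts only through XEN, so this p-value is no separate support. With only pXEN and ES in the fit, 7 of the 9 were tested. The 6 that rose in XEN thus include genes that entered only through it. The netrin gene Ntn4 stood at 24.3 CPM in XEN (adjusted p = 0.0261 against ES, lost without pXEN4, ES2 or ES3, up to 0.164).

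In the list of genes that fold, crosslink and export collagen, 17 of 18 were tested. Where 18.2% of all genes rose in pXEN and 20.7% in XEN, 16 of this list rose in each, with 1 lower in XEN. That gene, named here after its values were seen, was Klhl12 (adjusted p = 0.0382, lost without TMM scaling and without XEN1, XEN2, XEN5 or ES2, up to 0.296). Serpinh1, the collagen chaperone, stood at 957 and 1021 CPM in pXEN and XEN against 5.53 in ES (adjusted p = 1.39e-05 and 1.46e-05). The prolyl hydroxylase P4ha2 stood at 386 and 391 CPM against 5.79 (adjusted p = 1.59e-05 and 1.76e-05). Loxl2, which acts on collagen IV, stood at 77.2 and 150 CPM against 2 counts in ES, both in 1 line, and the prolyl hydroxylase P3h2 at 52.0 and 36.9 CPM against 1 count. In XEN against pXEN edgeR and DESeq2 each called 0 of the 17, where edgeR called 4.55% of all genes. Of the 17, 1 had an unadjusted p under 0.05 in edgeR, against 15.2% of all genes.

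Of 15 receptors of this matrix 12 were tested, while 35.9% of all genes were called in pXEN and 38.4% in XEN. Among the receptors 4 rose and 3 fell in pXEN, and 5 rose and 1 fell in XEN, with a median log2 fold change of -0.53 and 0.65. These counts rested on both ES lines: without ES2, 2 rose in each comparison, and without ES3, 1 fell in pXEN and 3 rose in XEN. Itga3, an integrin chain that binds laminin, stood at 74.5 CPM in pXEN and 129 in XEN against 8.90 in ES (adjusted p = 0.00933, and 0.0812 without ES2, in pXEN; 0.00356 in XEN). Itga6, another such chain, stood at 261 and 318 CPM against 95.2 (adjusted p = 0.0154 and 0.00674, both lost without ES2 or ES3, up to 0.0975 and 0.0586). Itgb1, the shared beta chain of many laminin and collagen receptors, was at 671 CPM in pXEN and 802 in XEN against 281 in ES (adjusted p = 0.00252 and 0.000949). Bcam, a receptor of the laminin chain that Lama5 encodes, fell by 4.52 on the log2 scale in pXEN (SE 0.84, adjusted p = 0.00293). In XEN the change of Bcam was -2.25 (adjusted p = 0.0369, lost without pXEN6, XEN2, XEN5 or ES2, up to 0.312, and under 3 other settings). Lrp4, which binds agrin, stood at 3.47 CPM in pXEN against 14.2 in ES (adjusted p = 0.0131, and 0.0783 without ES3). In XEN against pXEN 2 receptors were called higher, where 3.63% of all genes were, and 1 without pXEN4, pXEN6 or XEN5. With only pXEN and ES in the fit, 10 of the 12 receptors passed the filter on low counts, so the rest entered only with the XEN counts.

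Of 14 matrix proteases and inhibitors 11 were tested; 5 rose and 1, Mmp2, fell in pXEN, and 8 rose in XEN, or 5 without ES3. Of all genes, 18.2% rose and 17.8% fell in pXEN, and 20.7% rose in XEN. The inhibitor Timp2 had 3 counts over the ES lines and stood at 176 CPM in pXEN and 192 in XEN (adjusted p = 5.79e-05 and 6.21e-05). Adamts9, a secreted protease, stood at 442 and 359 CPM against 6.33 (adjusted p = 1.25e-05 and 1.74e-05). Ctsl, a lysosomal protease, stood at 621 CPM in pXEN and 608 in XEN against 51.2 in ES (adjusted p = 0.00121 and 0.00132). Mmp2, which cleaves collagen IV, stood at 0.492 CPM in pXEN against 13.5 in ES (adjusted p = 0.000266). The inhibitor Timp3 stood at 50.7 CPM in XEN against 2.14 in ES (adjusted p = 0.00124). In pXEN it stood at 11.8 CPM (adjusted p = 0.0292, lost without pXEN4, pXEN6 or ES2, up to 0.0842, and with only these groups in the fit). The protease gene Prss12 stood at 13.5 CPM in XEN against 0 counts in ES (adjusted p = 0.0101, lost without ES2 or ES3, up to 0.0583). At 1.27 CPM in pXEN, it passed the filter on low counts only through XEN, so this p-value is no separate support. In XEN against pXEN 3 were higher, and 5 in DESeq2, where edgeR called 3.63% of all genes higher. Mmp2 stood at 29.3 against 0.492 CPM (adjusted p = 0.000274) and Adamts1 at 19.5 against 0.382 CPM (0.0114, and 0.0564 without pXEN4). Adamts1, at 1.84 CPM in ES, passed the filter only through XEN, so its p-value is no separate support either. Prss12 and Adamts1 are among the 8 that rose in XEN against ES, and Adamts1 is among the 3 higher than in pXEN. With only pXEN and ES in the fit, 8 of the 11 were tested. Timp3 passed at 0.0442 but was lost without pXEN2, pXEN6, XEN1, XEN2 or XEN5 (up to 0.160), without TMM scaling and in unstranded counts. Of the 18 fibroblast markers tested, 17 were called higher in the same comparison, against 3.63% of all genes. With only pXEN and ES in the fit, 3 of the fibroblast markers passed the filter on low counts. Most of the 18, such as Col1a2, thus passed it only through XEN, where they are high. The count of 17 is therefore no separate support. The part of the fibroblast markers was not tested.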

How the data were processed

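Libraries of 12 lines were taken from tables of raw gene counts as deposited. The submitters' processing notes name CASAVA 1.8.2, Trimmomatic 0.33, STAR 2.5.1 and DESeq2, and the builds mm10 and rn6. Which annotation was counted over was not given in the sources used here. Only the last column was used, since it held 98.9% to 99.3% of the stranded mouse counts and 99.1% to 99.2% of the rat ones. The 4 rows of unassigned reads, 73.4% to 78.3% of mouse and 89.7% to 91.8% of rat reads, were left out.

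Mouse counts were tested with edgeR 4.0.16 (quasi-likelihood, TMM, filterByExpr with a minimum count of 10, all 3 groups in 1 fit, 10895 genes) and Benjamini-Hochberg adjustment over all genes, with a threshold of 0.05. Adjusted p-values throughout are from this fit unless DESeq2 (1.42.0) is named. Each sample is a separately derived line, so p-values measure the spread between lines. Rat lines, the only group of that species, entered no test. Alternatives were DESeq2, upper-quartile scaling, library totals, leaving out Rn45s, no filter, unstranded counts, only the compared groups, labelled sex as a covariate, and leaving out each line.

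Coordinates and exon lengths are from GENCODE vM21 (GRCm38; 23334 of 24411 symbols matched) and promoters from RefSeq (GRCm38.p6), with an entry for 9 of the 10 genes. A group at 0 counts was bounded with 3 counts over the group; exact 95% intervals (Clopper-Pearson for ratios, Poisson for counts) cover counting error only. Named were all 10 members, up to 4 called genes per other pathway list and comparison, those with the largest fold whose higher group reached 10 CPM, and the 4 most similar genes of 4 members. Members and lists were chosen with earlier results of these data known. The scripts were tested on simulated data.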

Additional observations from a re-analysis of the deposited data

Results flagged for a closer look

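For 2 of the 10 genes the change against ES differed between the XEN and the pXEN lines, where it did for 4.55% of all genes. It was tested as the difference of XEN and pXEN in edgeR's fit over all groups. The ES level drops out of that difference, so this is the XEN against pXEN test given above and no second finding. For Col4a5 the fitted log2 difference was 8.32 (adjusted p = 0.00162). Since pXEN had 0 counts this is no bound, and the bound is at least 42.6-fold. The gene had 0 counts in ES too and passed the filter on low counts only through XEN, so the p-value is no separate support. All 3 XEN lines were above all 3 pXEN lines. For Fbln1 the log2 difference was 4.30 (adjusted p = 0.0295), also with no overlap of the lines, and it was lost without any of 6 lines. Both genes were higher in the group with fibroblast markers, whose part was not tested. None of the 6 rat gene groups held a line far from the others by Dixon's test. With 4 lines that test can flag only an extreme value, so it does not show that CX1 was like the MAX lines.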

How the results depend on the processing

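Of the values for single genes, 241 kept direction and side of the threshold under other settings and 224 on leaving out a line; 6 and 21 lost the call, and 2 and 4 gained one. The sign turned for Col4a2 in XEN against pXEN with library totals (-0.015) and on leaving out a line (-0.75 to 0.87; below 0 without pXEN2, pXEN6 or XEN1). It also turned there for Nid1 (-1.37 to 0.052, above 0 without XEN2), Nid2 (-0.044 to 0.59, below 0 without XEN1) and Sparc (-0.35 to 0.13, above 0 without XEN2), and for Fbln1 in XEN against ES (-0.029 to 1.11, below 0 without XEN1). None of these was called. With no filter on low counts, 1 member was lower in pXEN than in ES and 1 higher in XEN than in pXEN, and with only these groups in the fit 1 was higher; the cause was not tested. On leaving out a line, members higher in pXEN than in ES numbered 3 to 5 and lower 1 to 3, members higher in XEN than in ES 5 to 7 and lower 1 to 2, and members higher in XEN than in pXEN 1 to 2.

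Library totals moved the median log2 change of all genes to 0.35 against ES in both groups, from -0.03 and 0.00, and the calls to 2652 higher and 1197 lower in pXEN and 2778 and 1080 in XEN, from 1978 and 1936 and from 2251 and 1937. Upper-quartile scaling gave medians of -0.13 and -0.11. Calls in XEN against pXEN were 396 higher and 100 lower, and 155 lower in DESeq2. No paired analysis was possible because the mouse groups compared share fewer than 2 line numbers and the rat lines stand alone. Low counts limit Col4a5, Col18a1 and Fbln1 in pXEN and all collagen IV and Nid1 values in ES.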
